A study of Mus musculus with 22 samples.

Results

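The heat shock and unfolded protein response genes are 43 genes of chaperones, co-chaperones and their transcriptional regulators, chosen by name from the table of whole-lung RNA. Of the 43, 23 encode cytosolic or mitochondrial chaperones, their helpers and the heat shock factors, and 20 encode endoplasmic reticulum (ER) chaperones, other ER stress proteins and the stress regulators Xbp1, Atf4, Ddit3, Atf3 and Trib3. They take up 44 of the 54532 gene rows in the table, because Ddit3 is listed under a second identifier with almost no counts. Of those rows 43 passed the filter on low counts and were tested among 16638 genes. The rule used what the genes encode and no measured value, though the members were chosen with earlier results of these data known.

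RNA came from the lungs of 22 young male C57BL6/j mice kept for 8 days in hypoxia or normoxia and given ABT-263 at 50 mg/kg/day or its vehicle. ABT-263 (navitoclax) blocks anti-apoptotic proteins of the BCL-2 family and is used as a senolytic, a drug meant to remove senescent cells. Hypoxia with ABT-263 had 5 libraries, hypoxia with vehicle 6, normoxia with ABT-263 6 and normoxia with vehicle, the study's control, 5. The oxygen fraction is not given in the sources used here. Each library is a whole lung, so fewer cells of a type and less RNA per cell cannot be told apart. All 10 lung marker genes examined, among them the surfactant genes Sftpc and Sftpb, were detected in every group.

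Cells answer misfolded proteins with separate programmes in separate compartments. In the cytosol heat shock factor 1 (Hsf1) is held inactive until unfolded proteins draw its chaperones away, and it then switches on HSP70, HSP40 and HSP90 genes through heat shock elements. In the ER the sensors IRE1, PERK and ATF6 are held by the chaperone BiP (Hspa5), and their outputs, spliced XBP1, ATF4 and cleaved ATF6, raise ER chaperones, disulfide isomerases and degradation factors. ATF4 is also made when other kinases phosphorylate eIF2 alpha, and Ddit3 (CHOP) and Trib3 are among its known targets.

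Library totals ran between 11509007 and 15744193 counts, and 0.741% to 1.34% of them fell on the 43 genes. For replicate 1 of hypoxia ABT-263, of hypoxia vehicle and of normoxia ABT-263, the sample title and the treatment tag name opposite treatments. Groups follow the titles here, and values without these 3 libraries or with the tag's treatment are given where they change a call. Normoxia ABT-263 replicate 2 stood apart in skeletal muscle markers, with a summed level of 2993 CPM (counts per library scaled to the same total with TMM factors, the unit of all levels here) against at most 57.1 in the other 21 libraries. Its values for Cryab and Hspb8, small heat shock genes that muscle also expresses, lay within the range of the other libraries.

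Promoters of Hspa1a, Hspa1b and Dnaja1, members whose levels the results turn on, are shown first. Heat shock elements and ER stress response elements are the known control sites of the cytosolic and the ER programme. The promoters shown were chosen because they hold a match. For Dnajb1, another such member, no match was found, through lack of an entry or of the letters in its window. Sequences come from RefSeq on GRCm38.p6, where 35 of the 43 members had an entry (17 cytosolic or mitochondrial and 18 ER), and each line gives the 250 bases before the annotated start, 5′ to 3′ on the gene's strand. Capitals mark the heat shock element searched, GAANNTTC, read on both strands. Hspa1a and Hspa1b, the stress-inducible HSP70 genes, lie side by side on the minus strand, and Dnaja1 is an HSP40 gene on the plus strand.
Hspa1a (chr17:34972157-34972406, minus strand): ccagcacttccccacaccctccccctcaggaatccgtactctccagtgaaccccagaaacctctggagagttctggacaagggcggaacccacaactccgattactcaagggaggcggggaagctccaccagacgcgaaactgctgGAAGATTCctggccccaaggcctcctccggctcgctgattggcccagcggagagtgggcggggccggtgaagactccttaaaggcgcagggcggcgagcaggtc
Hspa1b (chr17:34959239-34959488, minus strand): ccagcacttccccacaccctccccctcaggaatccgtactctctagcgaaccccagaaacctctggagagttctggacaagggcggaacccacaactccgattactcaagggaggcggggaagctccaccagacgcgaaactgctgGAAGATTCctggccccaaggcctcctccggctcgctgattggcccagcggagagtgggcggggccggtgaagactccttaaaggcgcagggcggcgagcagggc
Dnaja1 (chr4:40722218-40722467, plus strand): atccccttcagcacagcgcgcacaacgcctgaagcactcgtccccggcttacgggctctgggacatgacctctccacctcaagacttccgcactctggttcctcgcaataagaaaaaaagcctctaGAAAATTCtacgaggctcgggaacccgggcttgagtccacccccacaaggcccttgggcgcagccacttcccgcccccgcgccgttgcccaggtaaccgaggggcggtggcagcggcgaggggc
The Hspa1a and Hspa1b sequences differ at 3 of 250 bases and carry the same element, between bases 104 and 97 before the start. In Dnaja1 the element lies between bases 124 and 117 before the start. The likeness runs into the transcripts, where 62.3% of all 50-base windows of Hspa1b occur in Hspa1a and 58.8% of those of Hspa1a in Hspa1b. Expected counts divide such reads between the copies, so the separate values of Hspa1a and Hspa1b are uncertain, and their summed count was tested as an alternative.

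GAANNTTC was found in the promoters of 7 of the 17 cytosolic or mitochondrial members with an entry (Hspa1a, Hspa1b, Dnaja1, Hspb1, Fkbp4, Hspd1 and Hspe1) and of 0 of the 18 ER members, against 7.73% of all 27025 genes searched. The opposite arrangement, TTCNNGAA, which can overlap it, was found in Hsph1, Hspd1 and Hspe1 and in 8.11% of all genes. Hspd1 and Hspe1, the HSP60 and HSP10 subunits of the mitochondrial chaperonin, share a promoter between them. Each held overlapping matches to a form of 3 linked units, which was found in 0.514% of all genes. No match in 250 bases says only that these letters are not in this window.

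Among the ER members the element searched was the ER stress response element, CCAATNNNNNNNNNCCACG, on both strands. It was found in 7 of the 18 ER promoters, in 0 of the 17 cytosolic or mitochondrial ones and in 0.13% of all genes. The Hspa5 promoter and the matches in the other genes are printed because these are the ER members with a matching promoter. Capitals mark the whole element in Hspa5 and its fixed ends in the others.
Hspa5 (chr2:34771840-34772089, plus strand): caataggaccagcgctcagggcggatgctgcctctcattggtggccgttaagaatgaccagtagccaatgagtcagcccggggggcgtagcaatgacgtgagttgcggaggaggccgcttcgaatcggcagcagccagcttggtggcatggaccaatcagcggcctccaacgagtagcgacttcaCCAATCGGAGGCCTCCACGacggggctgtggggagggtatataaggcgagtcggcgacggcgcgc
Hsp90b1, nearer copy: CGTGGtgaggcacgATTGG
Hsp90b1, farther copy: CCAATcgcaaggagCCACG
Calr: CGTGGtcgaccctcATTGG
Canx: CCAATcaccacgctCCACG
Pdia6: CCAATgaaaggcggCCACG
Dnajc3: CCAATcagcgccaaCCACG
Creld2: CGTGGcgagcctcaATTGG
The Hspa5 element ends 47 bases before the start, and those of the other 6 genes end between 80 and 194 bases before it. In Calr, Creld2 and the nearer copy of Hsp90b1 the element is read on the strand opposite to the gene. The unfolded protein response element TGACGTG occurred in Hspa5 alone among the members with an entry and in 1.85% of all genes. The ATF4 site searched, TGATGNAA, occurred in Herpud1 and Atf3 and in 3.91% of all genes. These matches describe the sequences and are not evidence of binding.

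Levels of the members spanned a wide range in control lungs. In normoxia vehicle lungs, per kilobase of annotated exon, Hsp90ab1, the constitutive cytosolic HSP90, had the highest level at 478 ± 122 CPM per kb (SD, n = 5). The ER chaperones Hsp90b1 (GRP94), Calr (calreticulin) and Hspa5 (BiP) followed at 253 ± 35.4, 252 ± 31.5 and 179 ± 27.9 CPM per kb. Hsp90b1 and Calr did not differ beyond their spread, and neither did Hspa5 and the next gene, Serpinh1. Serpinh1 (HSP47), the collagen chaperone, Cryab (alpha B crystallin) and the constitutive HSP70 Hspa8 stood at 169.5 ± 34.6, 169 ± 15.6 and 148 ± 17.4 CPM per kb. At the low end were the inducible copies Hspa1a at 1.03 ± 0.351 and Hspa1b at 0.989 ± 0.361 CPM per kb, below Hsf2 at 2.04 ± 0.240 CPM per kb. Hspa1a and Hspa1b did not differ beyond their spread. Exons of rarely used transcripts are part of these lengths, so the order is approximate.

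**Figure D1:**
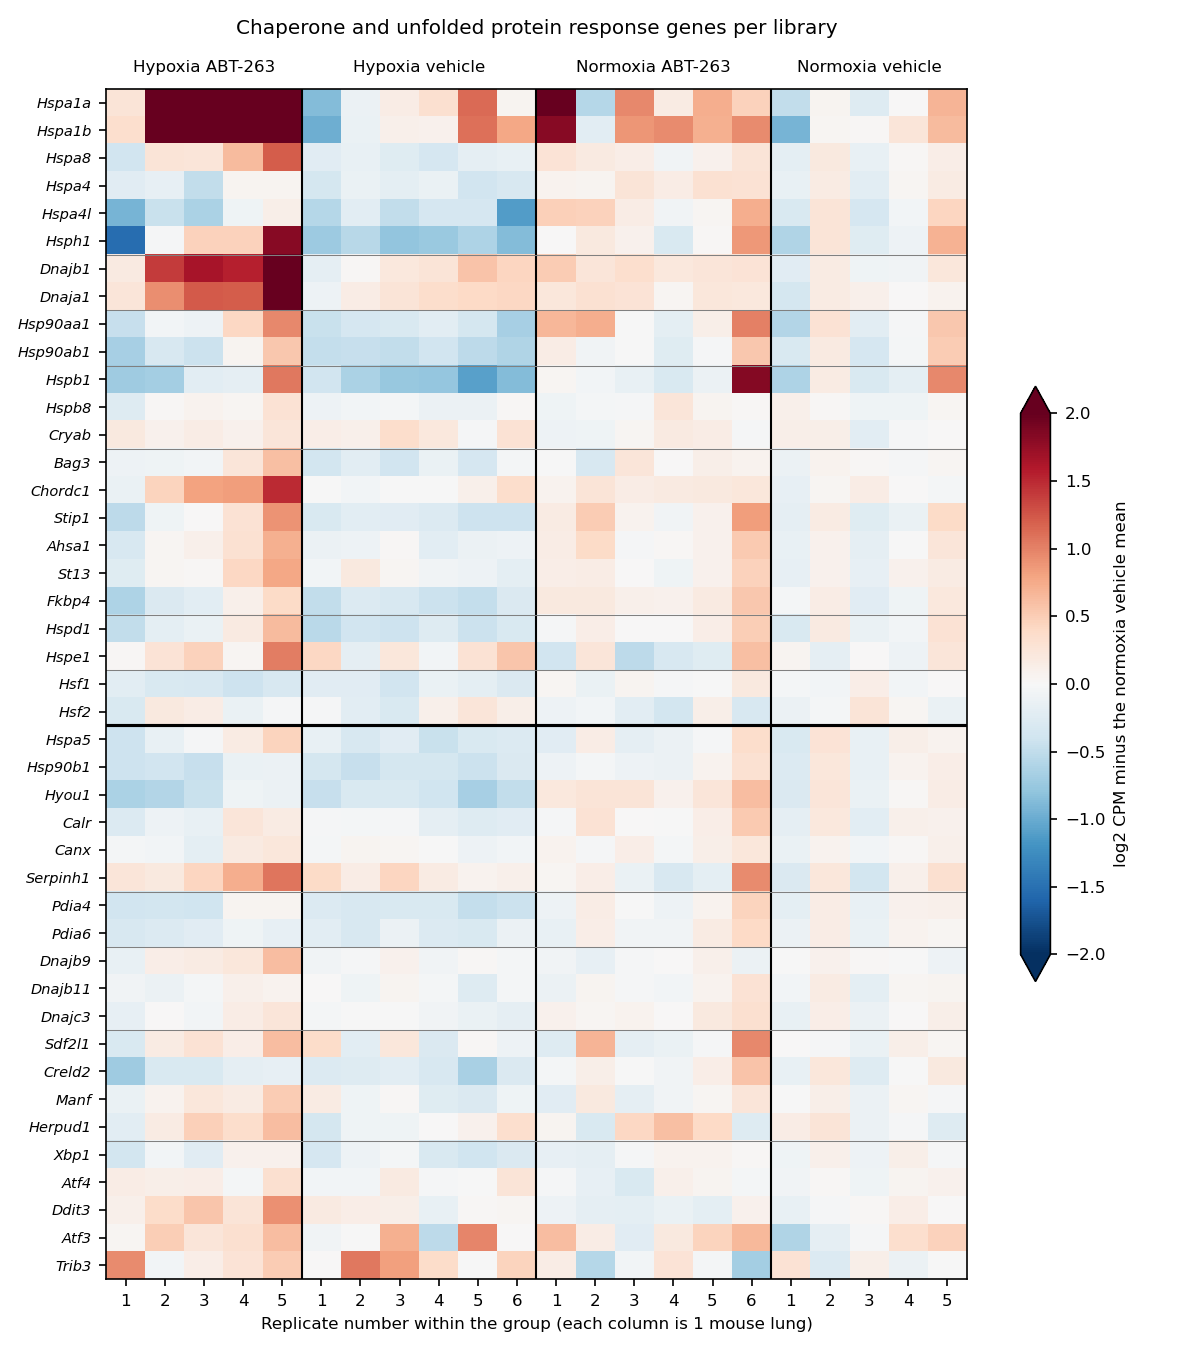
Level of each of the 43 genes (rows, grouped by class; the thick line parts the 23 cytosolic and mitochondrial genes above from the 20 ER and regulator genes below) in each of 22 libraries (columns). Colour is log2 CPM minus the normoxia vehicle mean, and values beyond 2 in size are drawn at the end of the scale. Replicates 2 to 5 of hypoxia ABT-263 are dark red for Hspa1a and Hspa1b and red, in part paler, for Dnajb1 and Dnaja1. Replicate 5 of that group and replicate 6 of normoxia ABT-263 are red over many rows, and replicate 1 of hypoxia ABT-263 is blue over many rows.

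A small group of cytosolic chaperone genes was higher in hypoxic lungs given ABT-263. Of the 43 members 4 rose and 0 fell in hypoxia ABT-263 lungs against hypoxia vehicle lungs, where 0.301% of all genes tested passed, 0.114% upward and 0.186% downward. The 4 were both inducible HSP70 copies, Hspa1a and Hspa1b, and the HSP40 genes Dnajb1 and Dnaja1, whose J domain proteins hand clients to HSP70. An unadjusted p under 0.05 was found for 19 of 43, these 4 included, and for 14.3% of all genes. The log2 fold change was positive for 39 of 43, with a median of 0.233 against −0.0067 over all genes. The median was 0.389 over the 23 cytosolic and mitochondrial members and 0.114 over the 20 ER members.

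Hspa1a (ENSMUSG00000091971; GRCm38 chromosome 17, 34969190 to 34972156) and Hspa1b (ENSMUSG00000090877; 34956436 to 34959238) had the same order of libraries. Hspa1a had 3.53, 19.0, 25.6, 30.8 and 163 CPM in hypoxia ABT-263 replicates 1 to 5, against a lowest, median and highest value of 1.55, 3.15 and 6.64 CPM in hypoxia vehicle lungs. Replicates 2 to 5 lay above every vehicle library and replicate 1 lay within their range, so the groups overlapped by that library. The fitted change of Hspa1a was 13.8-fold (log2 fold change 3.78 ± 0.70 SE, adjusted p = 0.0341). As one summed gene the copies changed by 3.87 on the log2 scale with an adjusted p of 0.0294.

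Dnajb1 (ENSMUSG00000005483; chromosome 8, 83608193 to 83612653) had 44.3, 103, 122, 114 and 230.0 CPM in hypoxia ABT-263 lungs, against 34.2, 45.9 and 57.9 CPM as lowest, median and highest in hypoxia vehicle lungs. Dnaja1 (ENSMUSG00000028410; chromosome 4, 40722150 to 40737149) had 73.9, 119, 147, 146 and 262 CPM, against 58.2, 77.1 and 83.5 CPM. In both genes replicate 1 was again within the vehicle range and replicate 5 the highest of all 22 libraries. The changes were 2.67-fold for Dnajb1 (log2 1.42 ± 0.25 SE, adjusted p = 0.0275) and 2.01-fold for Dnaja1 (1.01 ± 0.20 SE, adjusted p = 0.0358).

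**Figure D2:**
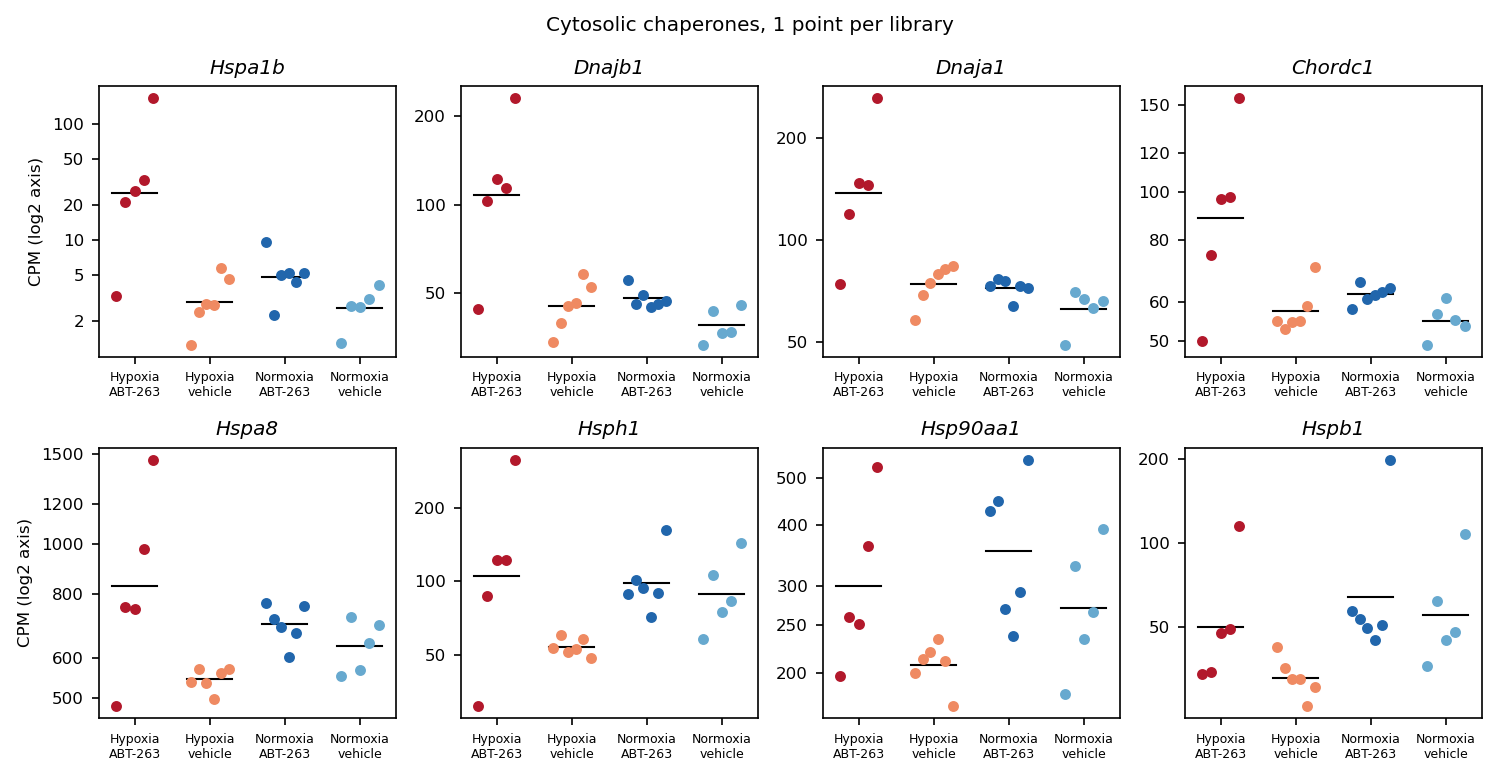
CPM (log2 axis) of 8 cytosolic chaperone genes, 1 point per library in replicate order within each group, with the line at the mean of the log2 values. In hypoxia ABT-263, 4 of 5 libraries lie above every hypoxia vehicle library for Hspa1b, Dnajb1, Dnaja1, Chordc1, Hspa8 and Hsph1, and the fifth, replicate 1, does not.

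The other HSP70-class members did not pass. In Hspa8 and Hsph1, hypoxia ABT-263 replicate 1 was again the lowest of its group and replicate 5 the highest. Hspa8, the constitutive HSP70, had 483, 754, 746, 980.3 and 1462 CPM in hypoxia ABT-263 lungs, against 499, 549.1 and 572 CPM in hypoxia vehicle lungs (0.70 ± 0.16 SE, adjusted p = 0.0639). Hsph1, an HSP110 that reloads HSP70 with ATP, had 30.8, 87.1, 122, 122 and 314 CPM, against 48.3, 53.1 and 60.3 CPM (1.32 ± 0.38 SE, adjusted p = 0.144). For both genes replicate 1 was below all 6 vehicle libraries and replicates 2 to 5 were above them. Hspa4 and Hspa4l, the other HSP110 genes, had log2 fold changes of 0.11 ± 0.09 and 0.13 ± 0.20 SE.

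Of the 6 co-chaperone members of HSP70 and HSP90, 0 passed in this comparison and all 6 had positive changes, between 0.27 and 0.72 on the log2 scale. Chordc1, an HSP90 co-chaperone, had 50.1, 74.8, 96.7, 97.9 and 155 CPM in hypoxia ABT-263 lungs, against 52.9, 54.9 and 70.5 CPM in hypoxia vehicle lungs (0.72 ± 0.17 SE, adjusted p = 0.0653). Bag3, which links HSP70 to autophagy, stood at 0.39 ± 0.11 (adjusted p = 0.11), and Stip1, which joins HSP70 to HSP90, at 0.50 ± 0.20 (adjusted p = 0.256). The HSP90 genes Hsp90aa1 and Hsp90ab1 stood at 0.62 ± 0.25 and 0.39 ± 0.18, and the small heat shock genes Hspb1, Hspb8 and Cryab at 0.75 ± 0.42, 0.11 ± 0.07 and −0.03 ± 0.08. The transcript of Hsf1 itself was at −0.08 ± 0.07 and that of Hsf2 at −0.01 ± 0.11.

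Of the 20 ER and regulator members, 0 passed for ABT-263 in hypoxia, and 4 had an unadjusted p under 0.05, as did 14.3% of all genes. Ddit3, the transcription factor CHOP, had the largest of these changes, with 24.95, 29.99, 34.1, 27.7 and 43.9 CPM in hypoxia ABT-263 lungs, against 20.9, 24.5 and 26.4 CPM in hypoxia vehicle lungs (0.41 ± 0.10 SE, adjusted p = 0.082). Hspa5 had 564, 674, 739.5, 843 and 1023 CPM, against 552, 613 and 679.6 CPM (0.32 ± 0.13 SE, adjusted p = 0.258). Replicates 3, 4 and 5 of hypoxia ABT-263 were above all vehicle libraries for Hspa5, and replicate 1 was below the vehicle median. The ER chaperones Hsp90b1, Hyou1, Calr and Canx had changes between 0.05 and 0.11, Serpinh1 stood at 0.35 ± 0.20, and Xbp1 and Atf4 stood at 0.15 ± 0.09 and 0.09 ± 0.08.

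The 4 calls for ABT-263 in hypoxia depended on which libraries and settings were used. Their directions held with each of the 22 libraries left out, but the number of members called was 0 without hypoxia vehicle replicate 1, 2 or 4 or hypoxia ABT-263 replicate 4 or 5, 2 without hypoxia vehicle replicate 3, and 11 without hypoxia ABT-263 replicate 1. The log2 fold changes of Hspa1a and Hspa1b were 2.499 and 2.71 without hypoxia ABT-263 replicate 5 and 4.09 and 4.26 without replicate 1, and the highest adjusted p for Hspa1b with a library left out was 0.0762. Without the 3 libraries with conflicting labels, 7 members passed, the 4 with Chordc1, Hspa8 and Ddit3. If the tag's treatment was used, 0 members and 0 genes in all passed, and Hspa1b stood at 3.80 with an adjusted p of 0.123. A fit of the hypoxia libraries alone called 0 members and 152 genes, DESeq2 called 9 members, and limma-voom with quality weights called Dnajb1 and Dnaja1. Without the low-count filter 3 members passed, and Dnaja1 had an adjusted p of 0.0649. In an edgeR fit without hypoxia ABT-263 replicates 1 and 5 together, chosen after seeing the data, all 4 genes kept their calls. Their log2 fold changes there were 2.85 for Hspa1a, 3.07 for Hspa1b, 1.31 for Dnajb1 and 0.89 for Dnaja1. The adjusted p values of that fit lay between 2.32e-06 and 0.00202.

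Markers of other cells moved along with this comparison. The summed level of 10 mitotic markers ran between 86.9 and 221 CPM in hypoxia ABT-263 lungs and between 44.6 and 74.1 CPM in hypoxia vehicle lungs, and that of 9 B cell markers between 124 and 161 CPM against 221 to 304 CPM, with no marker of either list at 0. Hypoxia ABT-263 replicate 1 had 171 CPM of mitotic markers and 161 CPM of B cell markers. Fibroblast markers summed to 2015 to 2923 CPM in hypoxia ABT-263 lungs and 1831 to 2119 CPM in hypoxia vehicle lungs. Immediate early genes, which respond to handling of tissue, summed to 1616 to 1806 CPM in hypoxia ABT-263 lungs, inside the 1308 to 1814 CPM of hypoxia vehicle lungs. The part of these cells and genes in the chaperone values was not tested.

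In normoxia, ABT-263 changed 0 of the 43 members in the edgeR test, where 0.535% of all genes passed (0.108% upward and 0.427% downward). Neither limma-voom nor DESeq2 called a member (0 each), and 1 member, Hyou1, had an unadjusted p under 0.05 (0.28 ± 0.11 SE, adjusted p = 0.269), as did 13% of all genes. Hspa1b ran between 2.24 and 9.59 CPM with a median of 5.07 in normoxia ABT-263 lungs, against 1.30, 2.70, 2.64, 3.11 and 4.11 CPM in normoxia vehicle lungs (0.94 ± 0.77 SE, adjusted p = 0.639). Its highest value, 9.59 CPM, was in replicate 1, a library with conflicting labels. The median change was 0.122 over the members and 0.013 over all genes, and 34 of 43 were positive.

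Whether ABT-263 acted differently in hypoxia and in normoxia was tested as the interaction. None of the 43 members passed in edgeR, as 0% of all genes did. Without adjustment 1546 genes, 10 of them members, had a p under 0.05, limma-voom called 0 genes, and DESeq2 called 17, none of them a member. The estimates for Hspa1a and Hspa1b, 2.96 ± 1.05 and 3.02 ± 1.04 SE, had adjusted p values of 0.388 and 0.378. Those for Dnajb1 and Ddit3 were 1.12 ± 0.36 (adjusted p = 0.351) and 0.53 ± 0.15 (adjusted p = 0.312). Calls in hypoxia and none in normoxia are therefore not shown to differ.

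Averaged over both oxygen conditions, 5 members rose with ABT-263, Hspa1a, Hspa1b, Dnajb1, Dnaja1 and Chordc1, and 0 fell, where 2.54% of all genes passed (1.23% upward and 1.31% downward). Chordc1 stood at 0.44 ± 0.12 SE with an adjusted p of 0.049, and its call was lost in 20 of the 22 fits with a library left out, all but those without hypoxia ABT-263 replicate 1 or 2. Hspa1b and Dnajb1 (2.45 ± 0.52 and 0.85 ± 0.18 SE) kept their calls in all 22. The number of members called was 11 without hypoxia ABT-263 replicate 1. It was 2 without replicate 1 of hypoxia vehicle, 1 of normoxia ABT-263 or 1, 3 or 4 of normoxia vehicle, and 3 without replicate 4 of hypoxia ABT-263, 2 of hypoxia vehicle or 6 of normoxia ABT-263. It was 0 if the tag's treatment was used.

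**Figure D3:**
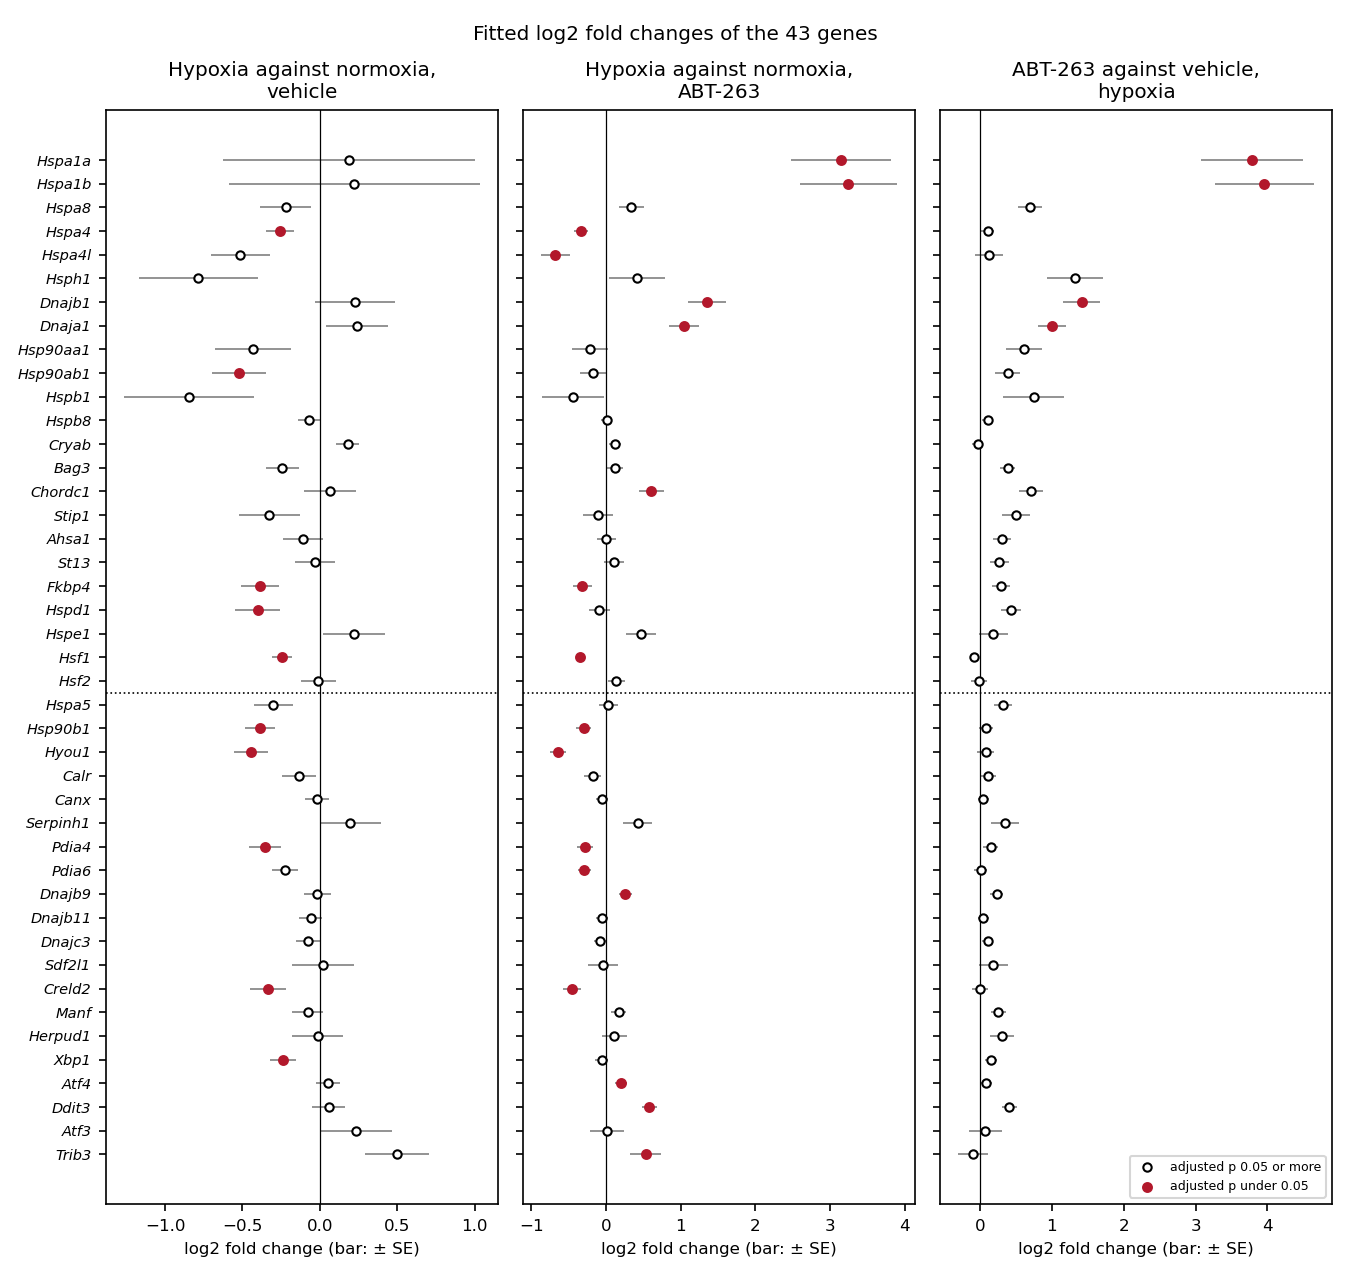
Fitted log2 fold change ± SE of each of the 43 genes in 3 comparisons; filled red points passed the adjusted p threshold of 0.05, and the dotted line parts the cytosolic and mitochondrial genes above from the ER and regulator genes below. In vehicle lungs the 10 red points lie between −0.52 and −0.24, and with ABT-263 in hypoxia the 4 red points are Hspa1a, Hspa1b, Dnajb1 and Dnaja1 (the horizontal scales differ between panels).

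A minority of the members, from both compartments, were lower in hypoxia among vehicle-treated mice, and most did not pass. Of the 43 members 10 fell and 0 rose in hypoxia vehicle lungs against normoxia vehicle lungs, where 26.3% of all genes passed, 12.8% downward and 13.5% upward. The members that fell were 5 of the 23 cytosolic and mitochondrial genes and 5 of the 20 ER genes, with log2 fold changes between −0.24 and −0.52. Upward, Cryab and Trib3 alone had an unadjusted p under 0.05; limma-voom with quality weights called these 2, and DESeq2 called 0. The median change was −0.0778 over the members and −0.0038 over all genes.

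On the ER side the genes that fell were the chaperones Hsp90b1 and Hyou1, the disulfide isomerase Pdia4, the ER stress protein Creld2 and the transcription factor Xbp1. Hyou1 (GRP170), which reloads BiP with ATP, had 65.1, 76.8 and 83.6 CPM as lowest, median and highest in hypoxia vehicle lungs, against 85.0, 123, 94.6, 105 and 114 CPM in normoxia vehicle lungs (−0.45 ± 0.11 SE, adjusted p = 0.0043). Hsp90b1 had 737, 791 and 829.3 CPM, against 837, 1182, 913, 1066 and 1111 CPM (−0.38 ± 0.10 SE, adjusted p = 0.00475). Pdia4 had 103, 116 and 118 CPM, against 125, 159, 129, 152 and 154 CPM (−0.35 ± 0.10 SE, adjusted p = 0.012). For these 3 genes every hypoxia vehicle library lay below every normoxia vehicle library, and the calls held with each library left out. The share of all genes tested whose groups did not overlap was not counted, in this or any other comparison.

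Creld2 had 35.7, 46.4 and 48.5 CPM in hypoxia vehicle lungs, against 50.6, 65.6, 47.1, 56.2 and 64.1 CPM in normoxia vehicle lungs (−0.34 ± 0.12 SE, adjusted p = 0.0331). Xbp1, the target of IRE1 splicing, had 161, 172 and 205 CPM, against 198, 226, 196, 228 and 207 CPM (−0.24 ± 0.08 SE, adjusted p = 0.0377). For both the groups overlapped, and the calls were lost in 4 and 7 of the 22 fits with a library left out, both without normoxia vehicle replicate 2, 4 or 5 or hypoxia vehicle replicate 5, and that of Xbp1 also without hypoxia vehicle replicate 1, 4 or 6. Gene counts do not separate spliced from unspliced Xbp1. Hspa5 itself, at 552, 613 and 679.6 CPM in hypoxia vehicle lungs against 607, 908, 676, 810.4 and 789.6 CPM in normoxia vehicle lungs, did not pass (−0.30 ± 0.13 SE, adjusted p = 0.0838).

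**Figure D4:**
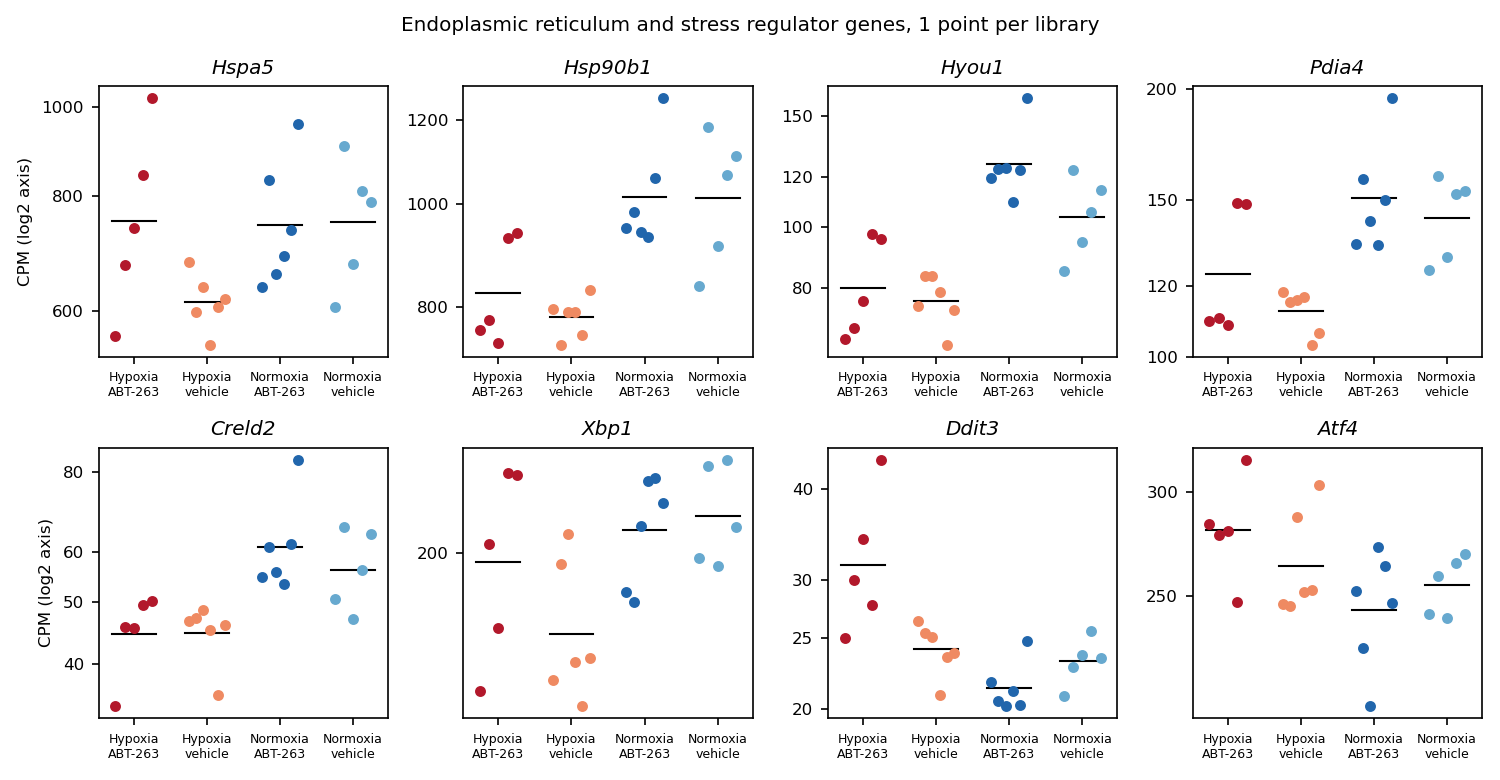
CPM (log2 axis) of 8 ER chaperone and stress regulator genes, 1 point per library in replicate order within each group, with the line at the mean of the log2 values. For Hsp90b1, Hyou1 and Pdia4 the hypoxia vehicle points lie below all normoxia vehicle points, and for Ddit3 the hypoxia ABT-263 points lie above all normoxia ABT-263 points.

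Among cytosolic and mitochondrial genes Hspa4, Hsp90ab1, Fkbp4, Hspd1 and Hsf1 fell. Hsf1 had 28.0, 31.4 and 33.6 CPM in hypoxia vehicle lungs, against 35.6, 35.4, 40.2, 35.4 and 37.0 CPM in normoxia vehicle lungs (−0.24 ± 0.06 SE, adjusted p = 0.00728). The groups did not overlap, and only 2.47% of all genes tested had a smaller fitted coefficient of variation than Hsf1. Hsp90ab1 had 924, 1002 and 1076 CPM, against 1129, 1577, 1114, 1355 and 1992 CPM (−0.52 ± 0.18 SE, adjusted p = 0.0313). Fkbp4, an immunophilin of the steroid receptor and HSP90 complex, had 164, 178 and 190.1 CPM, against 224, 254, 198, 217 and 266 CPM (−0.39 ± 0.12 SE, adjusted p = 0.0238). For Hsp90ab1 and Fkbp4 too, each hypoxia vehicle library was below all normoxia vehicle libraries.

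Hspd1 had 72.0, 79.3 and 87.3 CPM in hypoxia vehicle lungs, against 85.0, 118, 95.6, 101 and 128 CPM in normoxia vehicle lungs (−0.40 ± 0.14 SE, adjusted p = 0.0426). Its partner Hspe1, read from the same promoter in the other direction, was at 0.22 ± 0.20 SE with an adjusted p of 0.457. Hspa4 had 119, 129 and 142 CPM, against 139.8, 173, 134, 159 and 174 CPM (−0.26 ± 0.09 SE, adjusted p = 0.0387). Both Hspd1 and Hspa4 overlapped between the groups. Calls were lost in 8 fits with a library left out for Hspd1, 7 for Hspa4, 5 for Hsp90ab1 and 2 for Fkbp4, each of them without normoxia vehicle replicate 2 or 5 among others. Hspa1b, Hspb1 and Hsph1 did not pass and had wide errors, with Hspa1b at 0.22 ± 0.81, Hspb1 at −0.85 ± 0.42 and Hsph1 at −0.78 ± 0.38 SE.

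With a library left out, between 4 and 13 members fell. The number was 13 without normoxia vehicle replicate 1 or normoxia ABT-263 replicate 6, 4 without normoxia vehicle replicate 2 or 5, 6 without normoxia vehicle replicate 4 and 5 without hypoxia vehicle replicate 5, and Hsf1, Hsp90b1, Hyou1 and Pdia4 were called in all of these fits. Without the low-count filter 5 were called, and with a fit of the vehicle groups alone 17. Plasma cells, which secrete antibody and are rich in ER, and B cells had lower marker levels in the same comparison. Of 8 plasma cell markers tested 6 fell, with summed levels of 307 to 365 CPM in hypoxia vehicle lungs and 355 to 412 CPM in normoxia vehicle lungs. Of 9 B cell markers all fell, with sums of 221 to 304 CPM against 333 to 583 CPM, and no marker of either list was at 0. Of 9 T cell markers 7 fell (sums of 55.1 to 67.2 CPM against 76.0 to 109 CPM), and of 7 erythroid markers tested all rose (9265 to 13229 CPM against 4100 to 5941 CPM). The part of these cells in the lower chaperone levels was not tested.

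With ABT-263 in both groups, members moved in both directions, at shares near those of all genes. In hypoxia ABT-263 lungs against normoxia ABT-263 lungs 9 members rose and 9 fell, where 39.2% of all genes passed, 17.9% upward and 21.3% downward. The median change was 0.108 over the cytosolic and mitochondrial members and −0.0465 over the ER members, against −0.023 over all genes. This comparison shares the hypoxia ABT-263 libraries with the comparison of ABT-263 in hypoxia, so the values of Hspa1a, Hspa1b, Dnajb1 and Dnaja1 in those lungs count in both. Against normoxia ABT-263 these 4 genes changed by 3.15 ± 0.67, 3.25 ± 0.65, 1.35 ± 0.25 and 1.05 ± 0.20 SE on the log2 scale, with adjusted p values between 0.000332 and 0.00118. Without hypoxia ABT-263 replicate 5 Hspa1a and Hspa1b stood at 1.87 and 2.01 and kept their calls. Chordc1 rose by 0.61 ± 0.17 (adjusted p = 0.00682), or 0.37 without that library, with 58.0, 62.5 and 65.8 CPM as lowest, median and highest in normoxia ABT-263 lungs.

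The other members that rose were 4 ER or regulator genes, Dnajb9, Atf4, Ddit3 and Trib3, of which the last 3 belong to the ATF4 arm. Ddit3 had 24.95 to 43.9 CPM in hypoxia ABT-263 lungs, all above the 20.2, 20.8 and 24.7 CPM that were lowest, median and highest in normoxia ABT-263 lungs (0.58 ± 0.10 SE, adjusted p = 0.000119). Atf4 had 284, 278, 279.8, 247 and 317 CPM, against 206, 249 and 272 CPM (0.20 ± 0.08 SE, adjusted p = 0.0464). Trib3, a pseudokinase, had 11.7, 5.82, 6.63, 7.36 and 8.67 CPM, against 3.71, 5.80 and 7.32 CPM (0.53 ± 0.21 SE, adjusted p = 0.0465). The Atf4 and Trib3 groups overlapped, and each of these calls was lost in 7 of the 22 fits with a library left out. Both were lost without normoxia ABT-263 replicate 2 or 3, hypoxia vehicle replicate 4 or hypoxia ABT-263 replicate 1 or 5, Atf4 also without hypoxia ABT-263 replicate 2 or 3, and Trib3 also without normoxia ABT-263 replicate 5 or 6.

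Dnajb9 (ERdj4), an ER J protein and IRE1 partner, had 60.3, 72.6, 74.2, 77.7 and 102 CPM in hypoxia ABT-263 lungs, against 59.2, 64.5 and 71.1 CPM in normoxia ABT-263 lungs (0.26 ± 0.09 SE, adjusted p = 0.0187). Its call was lost without hypoxia ABT-263 replicate 5, at an adjusted p of 0.0874. The same genes in vehicle lungs, hypoxia against normoxia, had changes of −0.02 ± 0.09 for Dnajb9, 0.05 ± 0.08 for Atf4, 0.06 ± 0.11 for Ddit3 and 0.50 ± 0.21 SE for Trib3, none of which passed.

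The 9 members that fell with hypoxia under ABT-263 were Hspa4, Hspa4l, Fkbp4, Hsf1, Hsp90b1, Hyou1, Pdia4, Pdia6 and Creld2. Hyou1 had 66.4, 69.1, 76.3, 97.5 and 95.6 CPM in hypoxia ABT-263 lungs, against 109, 123 and 159.8 CPM in normoxia ABT-263 lungs (−0.64 ± 0.11 SE, adjusted p = 8.5e-05). Creld2 had 34.3, 45.7, 45.5, 49.4 and 50.2 CPM, against 53.4, 58.5 and 83.8 CPM (−0.46 ± 0.12 SE, adjusted p = 0.00342). Hsf1 had 31.5, 29.6, 29.3, 27.5 and 29.2 CPM, against 33.4, 37.0 and 42.0 CPM (−0.34 ± 0.07 SE, adjusted p = 0.000229). In all 3 genes every hypoxia ABT-263 library lay below every normoxia ABT-263 library, and the share of all genes that did so was not counted.

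Hspa4l, an HSP110, had 14.6, 20.4, 18.01, 26.4 and 30.4 CPM in hypoxia ABT-263 lungs, against 26.7, 34.9 and 46.3 CPM in normoxia ABT-263 lungs (−0.68 ± 0.19 SE, adjusted p = 0.00859). Hspa4 had 133, 138, 109.7, 160.3 and 162 CPM, against 161, 178 and 191 CPM (−0.33 ± 0.09 SE, adjusted p = 0.00618). Both overlapped between the groups through replicate 5 of hypoxia ABT-263 alone. Pdia6 stood at −0.29 ± 0.09 and held with each library left out. Hsp90b1, Pdia4 and Fkbp4 stood at −0.30 ± 0.10, −0.28 ± 0.10 and −0.31 ± 0.12 and lost their calls in 3, 5 and 19 of the 22 fits with a library left out, those of Hsp90b1 and Pdia4 without normoxia ABT-263 replicate 6 or hypoxia ABT-263 replicate 1 or 3, that of Pdia4 also without normoxia ABT-263 replicate 2 or hypoxia ABT-263 replicate 2, and that of Fkbp4 except without normoxia ABT-263 replicate 4 or hypoxia ABT-263 replicate 4 or 5. Without the 3 libraries with conflicting labels 5 members fell.

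The cell type markers moved in this comparison as well. Summed erythroid markers, of which 7 of 7 tested rose, ran between 8800 and 14902 CPM in hypoxia ABT-263 lungs, against 3649 to 6876 CPM in normoxia ABT-263 lungs. B cell markers, of which 9 of 9 fell, summed to 124 to 161 CPM against 243 to 338 CPM. Of 8 plasma cell markers tested 7 fell (288 to 357 CPM against 367 to 439 CPM), and of 9 T cell markers 4 fell (42.6 to 61.9 CPM against 49.2 to 74.6 CPM). Their part in the members' changes was not tested.

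Levels of these genes also varied between lungs of one group. Of the 43 members 21 had their highest value of all 22 libraries in hypoxia ABT-263 replicate 5, 14 of them cytosolic or mitochondrial, and 16 had it in normoxia ABT-263 replicate 6, 10 of them ER or regulator genes. Hypoxia ABT-263 replicate 1 held the lowest value for 11 members. How many of all genes tested had their highest or lowest value in these libraries was not counted. Relative to the normoxia vehicle mean, the median log2 deviation of the cytosolic and mitochondrial members was 0.772 in hypoxia ABT-263 replicate 5 and −0.252 in replicate 1, while the median over all genes was −0.0098 and −0.0077 there. In normoxia ABT-263 replicate 6 the median was 0.468 for the cytosolic and mitochondrial members and 0.315 for the ER members.

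Normoxia ABT-263 replicate 6 and hypoxia ABT-263 replicate 5 were both high for Hspb1, Hsp90aa1 and Serpinh1 and differed in Hspa1b. Normoxia ABT-263 replicate 6 had 199 CPM of Hspb1 (HSP27), 543.7 CPM of Hsp90aa1 and 788 CPM of Serpinh1, against highest values of 57.2, 449 and 446 CPM in the other 5 libraries of its group, but 5.19 CPM of Hspb1's fellow heat shock gene Hspa1b, inside the range of its group. Hypoxia ABT-263 replicate 5 had 168 CPM of Hspa1b, 115 CPM of Hspb1, 525 CPM of Hsp90aa1 and 856 CPM of Serpinh1. Mitotic marker sums were 128 CPM in that library and 237 CPM in normoxia ABT-263 replicate 6, and 247 CPM in normoxia ABT-263 replicate 2, which held the highest value of 0 members. Their part in these values was not tested.

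**Figure D5:**
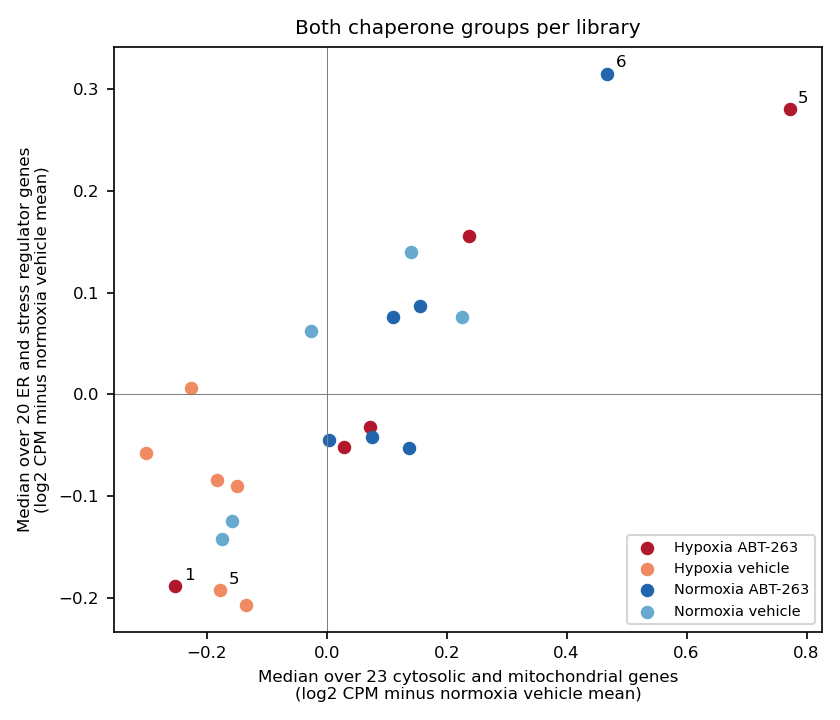
Median log2 deviation from the normoxia vehicle mean over the 23 cytosolic and mitochondrial genes (horizontal) and the 20 ER and stress regulator genes (vertical), 1 point per library; numbers give the replicate of 4 libraries with many highest or lowest values. Hypoxia ABT-263 replicate 5 (0.772 and 0.280) and normoxia ABT-263 replicate 6 (0.468 and 0.315) lie at the upper right, and hypoxia ABT-263 replicate 1 (−0.252 and −0.189) lies among hypoxia vehicle libraries at the lower left.

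By the fitted biological coefficient of variation, Hspa1a (0.718) and Hspa1b (0.703) exceeded 99.4% and 99.3% of the genes tested, and Hspb1 (0.460) and Hsph1 (0.427) exceeded 98% and 97.7%, where the median gene had 0.123. Dnajb1 (0.283) and Hsp90aa1 (0.280) followed. Nearer to the median gene were Hspa5 (0.149), Fkbp4 (0.146), Hyou1 (0.130), Bag3 (0.124), Hsp90b1 (0.114) and Hspa4 (0.110), genes of both compartments. Hsp90b1 and Hspa4 were below the median gene, and so were other members, among them Canx (0.0919) and Hspb8 (0.0901). Hsf1 (0.0715) was the lowest of the members.

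Within groups, the genes whose log2 CPM most resembled Dnajb1 over the 22 libraries were Ccdc117 (Pearson r = 0.972), Dedd2 (0.90), the ubiquitin ligase gene Siah2 (0.881) and Cacybp (0.856), with members Hspa1b (0.953), Dnaja1 (0.952), Hspa1a (0.929), Chordc1 (0.89) and Hspa8 (0.88). Without hypoxia ABT-263 replicate 5 the r of Ccdc117 was 0.959 and that of Cacybp 0.729. The genes nearest to Hspa5 were the ER disulfide isomerase Pdia3 (0.869), the oligosaccharyltransferase subunit Magt1 (0.844) and Hnrnpc (0.838), with members Ahsa1 (0.898), Calr (0.887) and Pdia4 (0.858). Hspa5 and Dnajb1 themselves had r = 0.583, or 0.382 without that library. Hsf1 was not close to either, at −0.198 with Dnajb1 and −0.214 with Hspa5. These are descriptions over libraries that share their depth and composition, with group means removed.

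The wider folding network was read from 4 lists of genes that are not members, chosen with earlier results of these data known. The list of 40 further chaperones and co-chaperones was mostly cytosolic, with some mitochondrial or ER genes. Of these 40, 9 rose and 4 fell in hypoxia vehicle lungs against normoxia vehicle lungs, where 13.5% of all genes rose and 12.8% fell. Hspb2, a small heat shock gene of muscle that lies head to head with Cryab, averaged 27.3 ± 5.70 CPM in hypoxia vehicle lungs and 12.4 ± 1.87 CPM in normoxia vehicle lungs (SD, n = 6 and 5; log2 1.13 ± 0.16 SE, adjusted p = 1.69e-05), while Cryab was at 0.18 ± 0.08 SE (adjusted p = 0.0889). Hspa12b, an endothelial HSP70 relative, rose by 0.50 ± 0.09, Bag1 rose by 0.39 ± 0.09, and Dnajc7 was at −0.31 ± 0.07. The smooth muscle markers Tagln and Acta2 rose in the same comparison, by 1.11 ± 0.11 and 0.60 ± 0.12, and their part in the Hspb2 change was not tested.

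Of 32 further ER folding and degradation genes tested, 5 rose and 7 fell in hypoxia vehicle lungs, against the same shares of all genes. Pdia5, a disulfide isomerase, averaged 12.6 ± 0.950 CPM in hypoxia vehicle lungs and 22.9 ± 3.97 CPM in normoxia vehicle lungs (SD, n = 6 and 5; log2 −0.86 ± 0.13 SE, adjusted p = 2.06e-05). The ERO1 genes split, with Ero1l (ERO1 alpha), a known hypoxia target, up by 0.42 ± 0.08 and Ero1lb (ERO1 beta) at −0.48 ± 0.07. Tmx1 rose by 0.34 ± 0.07. Of 13 sensors and transducers 0 rose and 5 fell, among them Ern1 (IRE1) at −0.43 ± 0.08, Eif2ak3 (PERK) at −0.32 ± 0.08, the haem-regulated kinase Eif2ak1 at −0.44 ± 0.10 and Atf6b at −0.27 ± 0.08. Of 28 ATF4 targets tested 1 rose, the serine synthesis gene Psat1 at 0.69 ± 0.15, and 4 fell, among them the glutathione-degrading Chac1 at −1.11 ± 0.24, Shmt2 at −0.36 ± 0.09 and the amino acid carrier subunit Slc3a2 at −0.39 ± 0.10.

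With hypoxia against normoxia under ABT-263, the mostly cytosolic list had 11 up and 10 down of 40 genes. The ER list had 7 up and 13 down of 32 genes, and the sensors 0 up and 5 down of 13. The ATF4 targets had 3 up and 6 down of 28, where 17.9% of all genes rose and 21.3% fell. Creb3l1, an ER-bound transcription factor, averaged 19.0 ± 4.15 CPM in hypoxia ABT-263 lungs and 34.5 ± 4.91 CPM in normoxia ABT-263 lungs (SD, n = 5 and 6; log2 −0.86 ± 0.15 SE, adjusted p = 9.04e-05). Chac1 stood at −1.31 ± 0.25, while Ddit3, Atf4 and Trib3 rose in this comparison. For ABT-263 against vehicle edgeR called 0 genes of these 4 lists in either oxygen condition. In the order above, 11, 4, 0 and 5 genes had an unadjusted p under 0.05 in hypoxia and 4, 2, 1 and 2 in normoxia, against 14.3% of all genes in hypoxia and 13% in normoxia. Averaged over oxygen conditions the chaperonin subunit Cct3 rose by 0.21 ± 0.06 (adjusted p = 0.0467).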

How the data were processed

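Whole-lung RNA of 22 mice was sequenced (stranded poly(A) libraries, per the labels' protocols), and the submitters' processing notes name Trimmomatic, STAR, RSEM and GRCm38 without versions. The deposited values are RSEM expected counts per gene, which divide reads shared by similar genes between them; 92.08% are whole, and they were rounded here. Groups follow the sample titles. All 16638 genes that passed filterByExpr (minimum count 10) were fitted in edgeR 4.0.16 (R 4.3.3) with TMM factors and a robust quasi-likelihood F test over 4 groups and 6 contrasts, with Benjamini-Hochberg adjustment over all genes and a threshold of 0.05. SE is the fold change divided by the root of F, and log2 CPM used a prior count of 2. Median SE over comparisons was 0.08 to 0.16. Alternatives included DESeq2 1.42.0 and limma 3.58.1 (voom with quality weights). The fit was tested on simulated data. GENCODE M21 on GRCm38 gave names, lengths and coordinates. No libraries of a group were alike within sampling noise (lowest chi-square per gene 5.15); p-values measure the spread between these mice. Members and lists were chosen with earlier results of these data known. Genes beyond the members were named by smallest p in their list, at most 4 per list and comparison, or by closest correlation; Creb3l1 and Pdia5 are among them, and the smooth muscle markers Tagln and Acta2 were chosen after their values were seen.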

Additional observations from a re-analysis of the deposited data

Results flagged for a closer look

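Within each group of 5 or 6 libraries, the gap between the most extreme library and its neighbour was set against the group's range (Dixon's test). Of 172 combinations of gene and group 11 passed, which is near the share of about 5% that chance gives. The genes were read in the same libraries, so the combinations are not independent. Normoxia ABT-263 replicate 6 held 7 of the 11, each as the highest of its group, with 199 CPM of Hspb1, 788 CPM of Serpinh1, 336 CPM of Fkbp4, 146 CPM of Hspd1, 159.8 CPM of Hyou1, 83.8 CPM of Creld2 and 24.7 CPM of Ddit3. The other 5 libraries of that group had at most 57.2 CPM of Hspb1 and at most 446 CPM of Serpinh1.

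Creld2 was also far below the rest of its group in hypoxia ABT-263 replicate 1, at 34.3 CPM, and in hypoxia vehicle replicate 5, at 35.7 CPM. Chordc1 stood apart as the highest of its group in hypoxia vehicle replicate 6, at 70.5 CPM. Dnaja1 stood apart as the lowest of its group in normoxia ABT-263 replicate 4, at 63.9 CPM. The extreme Hspa1a and Hspa1b values of hypoxia ABT-263 replicate 5 are not among the 11 on this scale.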

How the results depend on the processing

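None of the members' calls reversed direction under any alternative run; among the recomputed values of called members 992 kept their side of the threshold and 187 lost it. No paired analysis was possible because the labels give no replicate numbers and those used here only name the samples. Without the 3 libraries with conflicting labels, members called were 1 higher (hypoxia against normoxia, vehicle), 5 lower (hypoxia against normoxia, ABT-263) and 7 higher (ABT-263 in hypoxia), and genes called were 16 for ABT-263 in normoxia, 77 in hypoxia and 1 for the interaction. If the tag's treatment was used, 2 members were higher in hypoxia vehicle lungs against normoxia vehicle lungs, and 0 genes and 0 members were called for ABT-263 in hypoxia or averaged, with 0 genes in normoxia. With the compared groups alone, 17 members were lower in hypoxia with vehicle and 0 higher with ABT-263 in hypoxia, and ABT-263 had 152 genes in hypoxia and 17 in normoxia. With limma-voom, 2 members were higher in each of hypoxia with vehicle, ABT-263 in hypoxia and ABT-263 averaged, and ABT-263 had 388 genes in normoxia and 275 averaged. DESeq2 gave 9 members higher with ABT-263 in hypoxia, and 247 genes in hypoxia, 324 in normoxia, 17 for the interaction and 793 averaged. With library totals ABT-263 had 59 genes in normoxia and 271 averaged. Without the low-count filter 5 members were lower in hypoxia with vehicle and 3 higher with ABT-263 averaged, with 257 genes. Leaving out hypoxia ABT-263 replicates 1 and 5 together, chosen after seeing the data, gave 3 genes and 1 member for the interaction and 237 genes averaged. The cause of these shifts was not tested.

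With each library left out in turn, hypoxia against normoxia called 3319 to 4606 genes with vehicle (0 to 2 members higher, 4 to 13 lower) and 5649 to 6724 with ABT-263 (6 to 10 higher, 6 to 9 lower). ABT-263 called 3 to 228 genes in hypoxia (0 to 11 members higher), 1 to 183 in normoxia (0 members), 164 to 649 averaged (2 to 11 members higher) and 0 to 2 for the interaction (0 members). The normoxia vehicle libraries held 30 to 72 counts of Hspa1a and 19 to 62 of Hspa1b.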
